A study of Mus musculus with 10 samples.

Results

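Gluconeogenesis and the fasting response of the liver were followed here through 9 genes: *Pck1*, *G6pc*, *Fbp1*, *Pcx*, *Slc37a4*, *Ppargc1a*, *Foxo1*, *Irs2* and *Pdk4*. They were picked by name for their known roles, with earlier results of these data known. All 9 were found, by Entrez gene number, among the 16647 genes of the count table. The livers came from male mice humanized for PXR, CAR, CYP3A4 and CYP3A7, a commercial model in which human receptors and CYP3A enzymes take the place of the mouse ones. The mice were 10 to 15 weeks old when a high-fat diet (HFD) was started, and after 8 weeks on it they were gavaged 3 times per week for 4 weeks, still on HFD. The 5 MI-883 animals received 5 mg/kg MI-883, a small molecule that activates human CAR and antagonizes human PXR, in a mixture of DMSO, PEG300 and corn oil. The 5 control animals carried the same humanized loci, ate the same diet and received that mixture alone. Each library is a different animal. Blood of the study's animals was drawn after 3 h of fasting, and no fasting time is given separately for the livers that were sequenced. Libraries held 23513665 to 36221514 counted reads, and 13219 genes with at least 60 reads summed over the 10 livers were compared between the groups.

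Gluconeogenesis makes glucose from lactate, glycerol and amino acids when no glucose arrives from the gut. Glucagon, acting through cAMP and the transcription factor CREB, and glucocorticoids raise transcription of its enzymes in the hepatocyte, while insulin, acting through AKT, keeps the forkhead factor FOXO1 out of the nucleus and so lowers it. Both CAR and PXR are known to interfere with this control through FOXO1, CREB and PGC-1alpha, which makes these genes a natural place to look in livers exposed to a ligand of both receptors.

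The sequence upstream of a gene's start is where such factors are classically found. The 3 stretches shown are those of the member that changed (*Pdk4*) and of the textbook targets of this control, *Pck1* and *G6pc*, to set them side by side. Each runs 5′ to 3′ and covers the 250 bases before the start site annotated by RefSeq on GRCm38.p6, at chr6:5496279-5496528 on the minus strand for *Pdk4*, chr2:173152823-173153072 on the plus strand for *Pck1*, and chr11:101367466-101367715 on the plus strand for *G6pc*. Capitals mark the letters that match a searched motif on either strand.
Pdk4: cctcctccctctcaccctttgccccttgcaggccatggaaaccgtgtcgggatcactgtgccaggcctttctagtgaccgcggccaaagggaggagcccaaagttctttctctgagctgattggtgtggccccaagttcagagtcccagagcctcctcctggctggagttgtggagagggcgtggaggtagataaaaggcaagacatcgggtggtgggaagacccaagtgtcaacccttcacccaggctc
Pck1: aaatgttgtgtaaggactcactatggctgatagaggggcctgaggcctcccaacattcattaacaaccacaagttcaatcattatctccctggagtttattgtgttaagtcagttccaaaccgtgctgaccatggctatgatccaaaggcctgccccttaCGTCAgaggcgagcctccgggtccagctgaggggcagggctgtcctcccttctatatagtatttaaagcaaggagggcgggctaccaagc
G6pc: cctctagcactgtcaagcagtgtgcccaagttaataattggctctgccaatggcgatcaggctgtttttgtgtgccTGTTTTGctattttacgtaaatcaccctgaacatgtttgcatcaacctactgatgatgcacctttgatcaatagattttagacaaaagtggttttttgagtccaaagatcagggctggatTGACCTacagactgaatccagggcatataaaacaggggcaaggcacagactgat

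The search covered windows from 250 bases before to 50 bases after the start, for 12 windows of the 9 members and 32851 windows of all genes. The cAMP response element TGACGTCA was in 1.79% of all windows and in those of no member. Its core TGACG, which the full element contains, was in 20.8% of all windows, and was found at *Pck1* (starting 90 bases before the start, minus strand), at *Ppargc1a* and at *Slc37a4*. The forkhead sequence GTAAACA was in 3.65% of all windows and in those of no member. The insulin response sequence CAAAACA was in 6.28% of all windows and in those of *G6pc* (174 bases before the start, minus strand) and *Irs2* (37 bases before it, minus strand). The nuclear receptor element AGGTCA was in 16.3% of all windows and in those of *G6pc* (54 bases before the start, minus strand), *Pcx* and *Slc37a4*, and its direct repeat spaced by 1 base was in 13 windows, none of a member. Windows of *Pdk4*, *Fbp1* and *Foxo1* held none of these letters. A match is a description of the letters, and no match concerns this window and these spellings alone.

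Of the 9 genes, *Pdk4* was higher in MI-883 livers than in control livers, and 8 did not pass the test (quasi-likelihood test of edgeR, adjusted P under 0.05 over all 13219 genes). Of all tested genes 1.03% were called (0.764% higher and 0.265% lower), which is the share against which 1 of 9 has to be read. *Pdk4* was also the one member whose MI-883 livers all lay outside the range of the control livers, a pattern held by 3.98% of all tested genes, 2.05% with the MI-883 livers higher. By DESeq2, which called 3.5% of the tested genes, the same member passed and the other 8 did not. The 5 genes of the pathway's enzymes and its transporter all had fitted changes between -0.27 and -0.022 on the log2 scale with adjusted P from 0.412 to 0.942, and none of the 5 had an unadjusted P under 0.05 either.

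**Figure D1:**
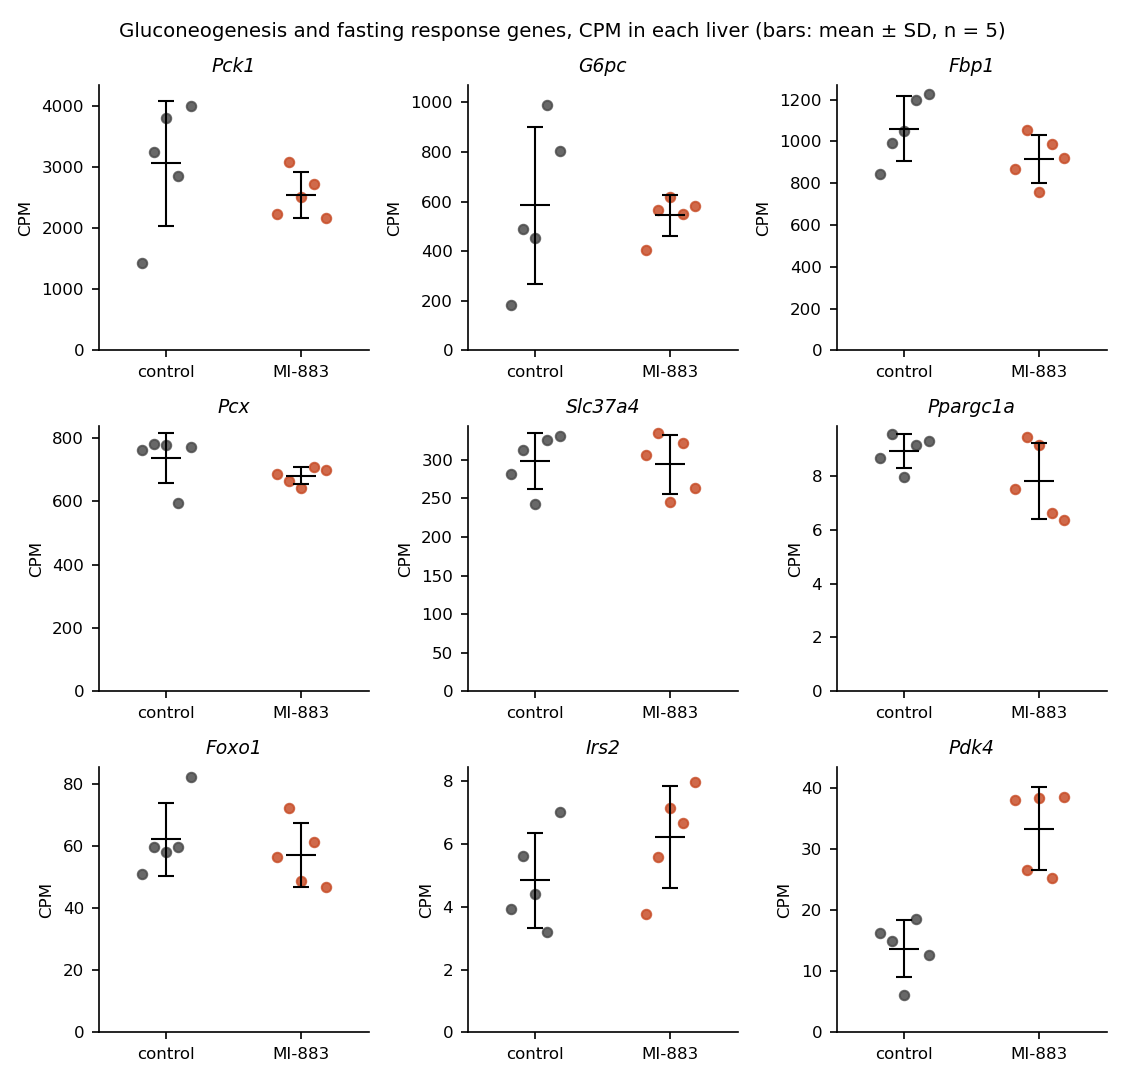
CPM (reads scaled to a common library size by TMM) of each of the 9 genes in each liver, with an own vertical axis from 0 for each gene; points are livers, horizontal bars the mean and whiskers the S.D. of 5 livers. The *Pdk4* points of the groups are apart (6.13 to 18.5 against 25.3 to 38.4 CPM), while those of the other 8 genes overlap.

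The level of a gene is given as CPM, its reads scaled to a common library size, and, where genes are compared with each other, as CPM per kb of exon. *Pdk4* (chr6:5483351-5496278, minus strand, Entrez gene 27273) encodes pyruvate dehydrogenase kinase 4, which phosphorylates and inactivates the pyruvate dehydrogenase complex and so spares pyruvate and lactate for gluconeogenesis. It is induced in fasting and is a known target of FOXO1, PPARalpha and glucocorticoids. In control livers 1 to 5 its level was 16.2, 15.03, 6.13, 18.5 and 12.7 CPM. In MI-883 livers 1 to 5 it was 38.0, 26.6, 38.3, 25.3 and 38.4 CPM. Every MI-883 liver was above every control liver, and control liver 3 was the lowest of all. The mean rose from 13.7 ± 4.72 CPM (S.D., n = 5) to 33.3 ± 6.76 CPM (S.D., n = 5). The fitted log2 fold change was 1.27 with a standard error of 0.2302 and a 95% confidence interval of 0.78 to 1.77, that is 2.42-fold with an interval of 1.71 to 3.41, and an adjusted P of 0.0198 by edgeR and 7.46e-06 by DESeq2. Permuting the livers exactly between the groups (mean log2 CPM, two-sided) gave P = 0.00794, the smallest that 5 livers against 5 allow, and 0.199 after adjustment over all genes. These levels rest on 150 to 1112 reads per liver.

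The call of *Pdk4* lay close to the threshold. Leaving out each liver in turn kept its log2 fold change between 1.09 and 1.40, and the call held in 8 of 10 such fits. Without control liver 5 the adjusted P was 0.0623, and without MI-883 liver 5 it was 0.0624 (edgeR).

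Markers of other tissues and cell types were read beside *Pdk4*. Over all tested genes, 1.03% were called by edgeR, 3.5% by DESeq2, and 15.6% had an unadjusted P under 0.05 (edgeR). The marker counts are to be read against these shares. The 3 kidney cortex markers summed to 0 to 1.54 CPM in control livers and to 0.410 to 26.1 CPM in MI-883 livers, with the highest counts in MI-883 livers 2 and 3. The 2 of them that were tested were both higher at an unadjusted P under 0.05 (median log2 fold change 3.37), with 0 called by edgeR and 0 by DESeq2. *Pdk4* stood at 26.6 and 38.3 CPM in MI-883 livers 2 and 3 and at 25.3 to 38.4 CPM in the other 3 MI-883 livers. Without both of them the log2 fold change of *Pdk4* was 1.30 with an adjusted P of 0.0968, and 54 genes in all were then called. Skeletal and heart muscle markers, 6 in number, summed to 0.219 to 0.922 CPM in control livers and 0.266 to 0.547 CPM with MI-883, with *Ckm* at 0 or 1 read in every liver. The defining fat cell markers were near 0 as well, with at most 4 reads of *Adipoq* and 2 of *Plin1* in a liver. The 6 hepatocyte markers were present at high levels in every liver, summing to 82656 to 96781 CPM in control livers and 68661 to 84834 CPM with MI-883. All 6 had fitted changes below 0 (median -0.21), with 0 called by edgeR, 1 by DESeq2 and 2 at an unadjusted P under 0.05. All 5 cholangiocyte markers had fitted changes above 0 (median 0.55, summed level 25.0 to 117 against 35.1 to 189.9 CPM), with 0 called by edgeR, 0 by DESeq2 and 1 at an unadjusted P under 0.05. Of 8 periportal hepatocyte markers 7 were below 0 (median -0.29), with 1 called lower by edgeR and 1 by DESeq2. At an unadjusted P under 0.05 there were 5 of the 8 (62.5%), all 5 lower. Of 8 pericentral ones 4 were below 0 (median 0.025), with 0 called by edgeR, 2 by DESeq2 and 2 at an unadjusted P under 0.05. Summed markers of Kupffer cells and leukocytes (121 to 153 against 94.1 to 183 CPM), stellate cells (205 to 317 against 225 to 370.4 CPM), endothelial cells (96.0 to 131 against 105 to 144 CPM) and red blood cells (98.7 to 148 against 79.0 to 131 CPM) overlapped between the groups. Of 6 stellate cell markers 5 were above 0, with 2 at an unadjusted P under 0.05, both higher. Of 5 endothelial ones 4 were above 0, with 2 under 0.05, both higher. Of 8 Kupffer cell and leukocyte ones 5 were above 0, with 1 under 0.05. All 3 red blood cell ones were below 0, with 0 under 0.05. No marker of these types was called by edgeR or DESeq2. The part of cell composition in the levels of these genes was not tested. In whole liver, fewer cells of a type and less RNA per cell cannot be told apart.

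**Figure D2:**
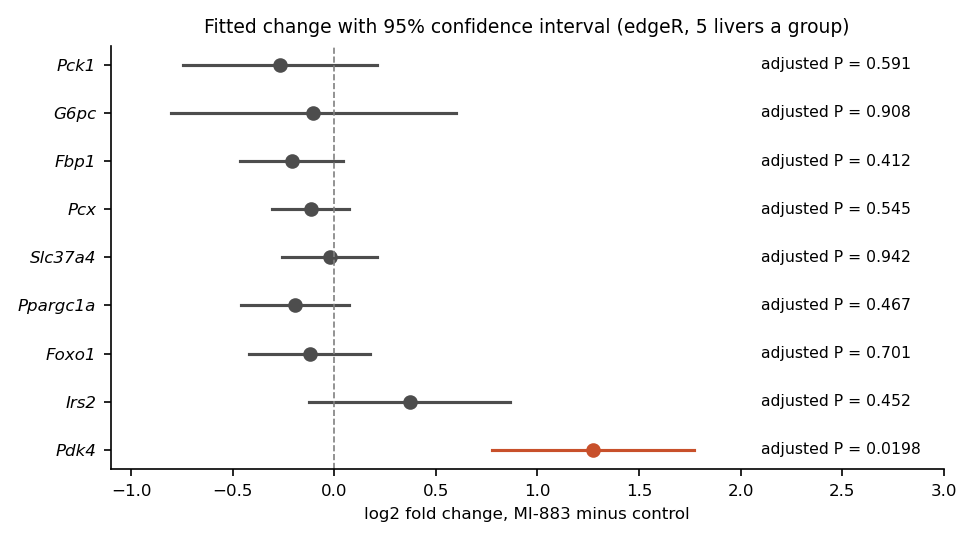
Fitted log2 fold change (MI-883 minus control, horizontal axis) of the 9 genes with its 95% confidence interval (line) and adjusted P from edgeR, 5 livers a group. The interval of *Pdk4* (0.78 to 1.77) lies above 0, and those of the other 8 genes include 0.

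Mammals have 4 pyruvate dehydrogenase kinases, of which *Pdk1*, *Pdk2* and *Pdk3* were looked at after the value of *Pdk4* was known. Per exon length, *Pdk2* was the most abundant of them in control livers (44.97 ± 4.72 CPM per kb, S.D., n = 5), followed by *Pdk1* (21.4 ± 3.16) and *Pdk4* (3.91 ± 1.35), while *Pdk3* was at 0.138 ± 0.0339. In MI-883 livers the levels were 42.3 ± 5.90 for *Pdk2*, 20.04 ± 1.38 for *Pdk1*, 9.49 ± 1.93 for *Pdk4* and 0.245 ± 0.0707 for *Pdk3* (CPM per kb, S.D., n = 5). The order was thus the same in both groups, with *Pdk4* the third. As a share of the kinase transcripts per length, *Pdk4* made up 2.67% to 7.77% in control livers and 9.42% to 17.2% in MI-883 livers. Fitted changes of the other kinases did not pass the test, with log2 fold changes of -0.097 for *Pdk1* (adjusted P = 0.658), -0.090 for *Pdk2* (adjusted P = 0.703) and 0.81 ± 0.295 (standard error) for *Pdk3* (adjusted P = 0.211), the last on 6 to 24 reads per liver. The subunits and phosphatases of the complex on which these kinases act were 8 tested genes, 4 above and 4 below 0 (median log2 fold change 0.003). None of the 8 was called by edgeR or DESeq2 or had an unadjusted P under 0.05. The smallest P of the 8 belonged to *Dld*, the dihydrolipoamide dehydrogenase, at 173 ± 17.1 CPM in control livers and 155 ± 6.49 CPM with MI-883 (log2 fold change -0.16, adjusted P = 0.333).

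**Figure D3:**
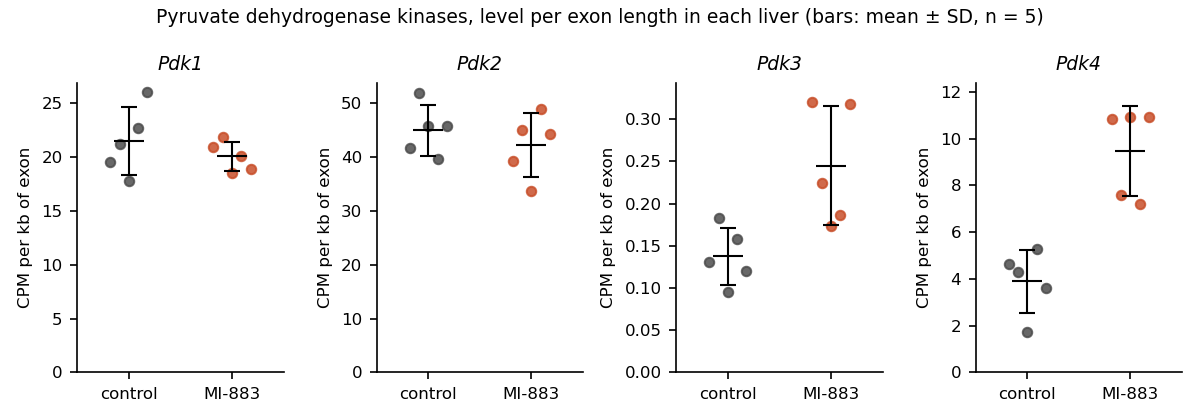
Level of the 4 pyruvate dehydrogenase kinases in each liver in CPM per kb of exon (vertical axes from 0, own scale for each gene); points are livers, bars the mean ± S.D. of 5 livers. Levels of *Pdk1* and *Pdk2* overlap between the groups and exceed those of *Pdk4*, whose groups are apart.

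*Pck1* (chr2:173153073-173159274, plus strand, Entrez gene 18534) encodes the cytosolic phosphoenolpyruvate carboxykinase, which commits oxaloacetate to gluconeogenesis. Its level was 1420.3, 3238, 3795, 2845 and 3987 CPM in control livers 1 to 5. In MI-883 livers 1 to 5 it was 2229, 3082, 2512, 2714 and 2159 CPM. All 5 MI-883 livers were below the control median but above control liver 1, so the groups overlapped. The means were 3057 ± 1020.5 and 2539 ± 376 CPM (S.D., n = 5), with a log2 fold change of -0.27 (95% confidence interval -0.75 to 0.21, adjusted P = 0.591 by edgeR). This gene was the most abundant member per exon length, at 891 ± 298 CPM per kb in control livers, and carried 50847 to 103630 reads per liver. Its mitochondrial isoenzyme *Pck2* was far below it, at 0.370 ± 0.0555 CPM per kb. *Pck2* was at 2.89 ± 0.434 CPM in control livers and 3.96 ± 0.665 CPM with MI-883, with no overlap between the groups, and its log2 fold change of 0.45 (standard error 0.154) did not pass the test (adjusted P = 0.186).

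*G6pc* (chr11:101367716-101377903, plus strand, Entrez gene 14377) encodes the catalytic subunit of glucose 6-phosphatase, which releases free glucose from the hepatocyte. Control livers 1 to 5 held 184, 488, 454, 992 and 805 CPM. MI-883 livers 1 to 5 held 406, 567, 617, 549.9 and 582 CPM. The control livers spanned a 5.39-fold range and enclosed all MI-883 livers, which spanned 1.52-fold. The means were 585 ± 317 and 545 ± 81.1 CPM (S.D., n = 5), with a log2 fold change of -0.10 and the widest interval of the members, from -0.80 to 0.60 (adjusted P = 0.908, edgeR). The sign itself turned when control liver 4 (log2 fold change 0.17) or control liver 5 (0.040) was left out. *G6pc3*, the ubiquitous isoform, was at 9.53 ± 0.532 and 10.8 ± 0.909 CPM (log2 fold change 0.18, adjusted P = 0.339) and was 2.45% of the transcripts of both isoforms per length in control livers.

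*Slc37a4* (chr9:44396946-44402966, plus strand, Entrez gene 14385) encodes the transporter that carries glucose 6-phosphate to that enzyme in the endoplasmic reticulum. Its level was 282, 313, 243, 325 and 331 CPM in control livers and 306, 335, 246, 322 and 264 CPM in MI-883 livers 1 to 5. The ranges of both groups nearly coincided. The log2 fold change was -0.022 (95% confidence interval -0.25 to 0.21, adjusted P = 0.942, edgeR), so close to 0 that its sign turned with total counts as the scale (0.016) and without any of 5 single livers, namely control livers 2 (0.0012), 4 (0.010) and 5 (0.017) and MI-883 livers 3 (0.037) and 5 (0.015).

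*Fbp1* (chr13:62864753-62888298, minus strand, Entrez gene 14121) encodes fructose-1,6-bisphosphatase, which removes a phosphate from fructose-1,6-bisphosphate in gluconeogenesis. It stood at 846, 993, 1048, 1196 and 1226 CPM in control livers 1 to 5 and at 869, 1057, 757, 988 and 919.9 CPM in MI-883 livers 1 to 5. Of the MI-883 livers 4 were below the control median, within an overlapping range. The log2 fold change was -0.21 (95% confidence interval -0.46 to 0.044, adjusted P = 0.412, edgeR), between means of 1062 ± 155 and 918 ± 115 CPM (S.D., n = 5).

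*Pcx* (chr19:4510472-4621752, plus strand, Entrez gene 18563) encodes pyruvate carboxylase, which makes the oxaloacetate that *Pck1* uses. It stood at 761, 781, 778, 596 and 772 CPM in control livers 1 to 5 and at 685, 665, 642, 709 and 699 CPM in MI-883 livers 1 to 5. All MI-883 livers were below 4 of the control livers and above control liver 4. The log2 fold change was -0.12 (95% confidence interval -0.30 to 0.071, adjusted P = 0.545, edgeR), between means of 737 ± 79.6 and 680.1 ± 27.0 CPM (S.D., n = 5). The gene overlaps *Lrfn4*, which also has counts, and the strand setting of the counting is not given in the sources used here.

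Together the 5 genes of the enzymes and the transporter summed to 3493 to 7120 CPM in control livers and to 4495 to 5705 CPM in MI-883 livers, so the summed level of the treated livers lay inside that of the controls. The median of their fitted changes was -0.12 beside 0.0045 over all tested genes. All 5 were below 0 in this fit. *Slc37a4* turned to 0.016 with total counts as the scale, which raised the median of all genes to 0.049, and *G6pc* and *Slc37a4* also turned above 0 with a surrogate variable (0.20 and 0.0089) and without single livers as given for each gene.

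Among the regulators, *Ppargc1a* (chr5:51454249-52115853, minus strand, Entrez gene 19017) encodes PGC-1alpha, the coactivator that fasting induces and that acts with FOXO1 and HNF4alpha on the enzymes' genes. Its level was 8.66, 9.53, 7.97, 9.15 and 9.30 CPM in control livers and 7.52, 9.43, 9.14, 6.61 and 6.35 CPM in MI-883 livers 1 to 5. Of the MI-883 livers 3 were below all control livers, and the others were within their range. The log2 fold change was -0.19 (95% confidence interval -0.46 to 0.071, adjusted P = 0.467, edgeR), from means of 8.92 ± 0.621 and 7.81 ± 1.42 CPM (S.D., n = 5) and 152 to 316 reads per liver.

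*Foxo1* (chr3:52268337-52350109, plus strand, Entrez gene 56458) encodes the forkhead factor through which insulin acts, chiefly by way of its phosphorylation, which read counts do not measure. It was at 51.2, 59.8, 58.2, 59.9 and 82.2 CPM in control livers and 56.6, 72.4, 48.8, 61.5 and 46.8 CPM in MI-883 livers 1 to 5. Levels of the groups overlapped, with control liver 5 the highest. The log2 fold change was -0.12 (95% confidence interval -0.42 to 0.18, adjusted P = 0.701, edgeR), from means of 62.3 ± 11.7 and 57.2 ± 10.3 CPM (S.D., n = 5).

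*Irs2* (chr8:10984681-11008929, minus strand, Entrez gene 384783) encodes the insulin receptor substrate that rises in fasting, a FOXO1 target that couples the receptor to PI3-kinase. It was at 3.94, 5.62, 4.41, 3.19 and 7.02 CPM in control livers and 3.76, 5.58, 7.14, 6.66 and 7.98 CPM in MI-883 livers 1 to 5. Of the MI-883 livers 4 were above the control median, within an overlapping range. The log2 fold change was 0.37 (95% confidence interval -0.12 to 0.87, adjusted P = 0.452, edgeR), from means of 4.84 ± 1.51 and 6.22 ± 1.63 CPM (S.D., n = 5), and it rests on 108 to 225 reads per liver. Per exon length it was the least abundant member, at 0.765 ± 0.238 CPM per kb in control livers.

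Ordered by CPM per kb of exon in control livers, *Pck1* (891 ± 298) was followed by *Fbp1* (624 ± 91.2), *G6pc* (242 ± 131), *Pcx* (155 ± 16.7), *Slc37a4* (105 ± 12.8), *Foxo1* (7.19 ± 1.35), *Pdk4* (3.91 ± 1.35), *Ppargc1a* (1.35 ± 0.0942) and *Irs2* (0.765 ± 0.238). In this order *Pck1* and *Fbp1*, and *G6pc* and *Pcx*, were within 1 S.D. of each other. In MI-883 livers the order was the same but for *Pdk4* (9.49 ± 1.93), which then stood above *Foxo1* (6.61 ± 1.19).

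The members also differed in how much they varied between livers of a group. *G6pc* had a within-group S.D. of log2 CPM larger than that of 95.6% of tested genes, *Pdk4* of 88.6%, *Pck1* of 86.1% and *Irs2* of 84.7%, whereas *Pcx* exceeded 25.4%. The coefficient of variation of *G6pc* was 54.2% in control and 14.9% in MI-883 livers, and that of *Pck1* was 33.4% and 14.8%. For *Ppargc1a* it was 6.96% in control and 18.2% in MI-883 livers. The difference in spread between the groups was not tested. Control liver 1 was the lowest of its group for *Pck1*, *G6pc*, *Fbp1* and *Foxo1*, but not for *Pdk4*.

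**Figure D4:**
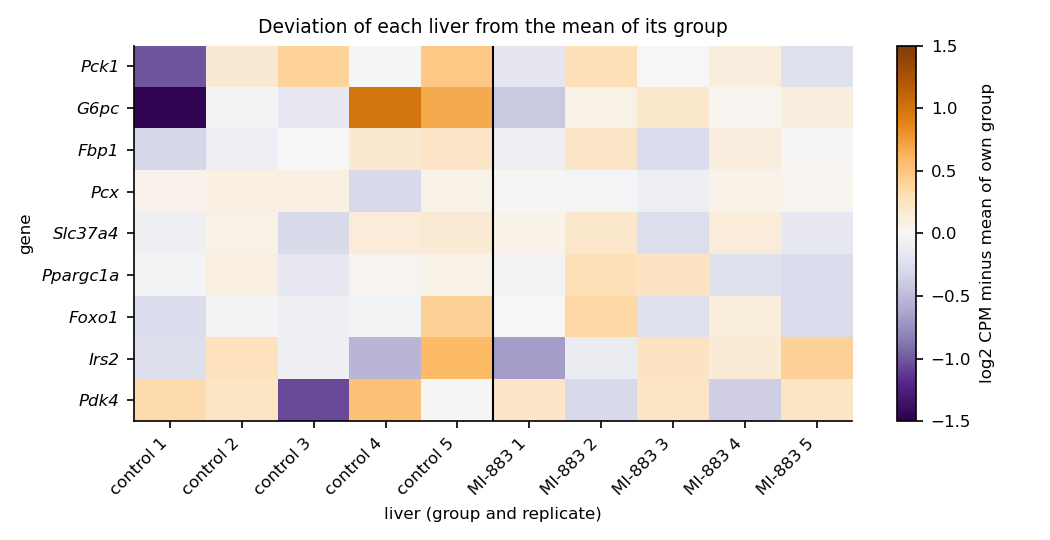
Deviation of each liver from the mean log2 CPM of its own group for the 9 genes (rows) in the 10 livers (columns), in log2 units from purple (below) to orange (above). Control replicate 1 is low for *Pck1* and *G6pc*, and control replicate 3 is low for *Pdk4* but not for *Pck1*.

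Whether members rose and fell together from liver to liver was examined after subtracting group means, over 36 pairs and 10 livers. None of the 36 pairs passed adjustment over the pairs (smallest adjusted P 0.378 for Pearson's r and 0.300 for Spearman's rho, exact permutation within groups, two-sided). Unadjusted, 4 pairs by r and 5 by rho were under 0.05, and 2 by both, namely *Fbp1* with *Foxo1* (r = 0.77, exact P = 0.0174, rho = 0.72, exact P = 0.0284) and *Slc37a4* with *Foxo1* (r = 0.73, exact P = 0.0335, rho = 0.84, exact P = 0.0102). Without the 2 livers farthest from the median of *Fbp1* or *Slc37a4*, r was 0.69 and 0.87. *Pck1* and *G6pc* had r = 0.72 (exact P = 0.132) and rho = 0.28, but r = -0.11 without the 2 farthest livers, so that relation rests on those livers. *Pck1* and *Pdk4* went in opposite directions within groups (rho = -0.81, exact P = 0.0167, adjusted P = 0.300), with r = -0.54 (exact P = 0.236).

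The pathway around the members was followed in 12 lists of 179 genes, of which 174 were tested. Of these 174 genes 86 had fitted changes above 0 and 88 below, with a median of -0.0048, and 2 were called, *Pik3cb* upward and *Srebf1* downward. That is 1.15% of them, beside 1.03% of all tested genes. DESeq2 called 10 of the 174, or 5.75% (3 higher, 7 lower), beside 3.5% of all tested genes (291 higher, 172 lower). At an unadjusted P under 0.05 there were 38, or 21.8% (14 higher, 24 lower), beside 15.6% of all tested genes (1069 higher, 990 lower). Counts of the single lists that follow are to be read against these same shares of all tested genes.

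In insulin receptor signalling 12 of 20 genes were above 0 (median 0.050), and 1 was called. *Pik3cb*, a catalytic subunit of PI3-kinase, rose from 22.7 ± 1.12 CPM (range 20.9 to 23.7) to 31.9 ± 3.91 CPM (range 25.7 to 35.5), with no overlap between the groups (S.D., n = 5). Its log2 fold change was 0.49 with a standard error of 0.0862 and an adjusted P of 0.0170 by edgeR and 8.36e-05 by DESeq2. It was called in 9 of 10 fits that left out a liver, the exception being MI-883 liver 5 (adjusted P = 0.0528), and without MI-883 livers 2 and 3 together the adjusted P was 0.120. Other genes known as FOXO1-linked in liver numbered 15, with 8 above and 7 below 0 (median 0.0051), 0 called by edgeR, 0 by DESeq2 and 3 at an unadjusted P under 0.05. Among these, *Igfbp1*, the classical FOXO1 target that insulin represses, varied from 12.0 to 88.1 CPM in control livers and 26.1 to 69.3 CPM with MI-883, with means of 46.7 ± 30.4 and 46.3 ± 16.4 CPM (log2 fold change -0.0099, adjusted P = 0.993). *Cited2*, a transcriptional coregulator, was at 23.5 ± 3.01 and 28.9 ± 2.49 CPM (log2 fold change 0.30, adjusted P = 0.165).

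The control of gluconeogenesis by glucagon, cAMP, glucocorticoids and transcription factors was represented by 30 genes, 12 above and 18 below 0 (median -0.094). Of these, 0 were called by edgeR and 1 by DESeq2 (3.33%), and 6 (20%), all 6 lower, had an unadjusted P under 0.05. *Cebpa*, a transcription factor of the hepatocyte that acts on *Pck1*, was at 644 ± 37.4 and 524 ± 55.2 CPM (log2 fold change -0.30, adjusted P = 0.133 by edgeR and 0.0151 by DESeq2), and all MI-883 livers were below the control median. *Gcgr*, the glucagon receptor, was at 356 ± 37.2 and 313 ± 22.4 CPM (log2 fold change -0.19, adjusted P = 0.312). Isoenzymes and paralogs of the members gave 14 tested genes, 8 above and 6 below 0 (median 0.041), with 0 called by edgeR, 0 by DESeq2 and 4 at an unadjusted P under 0.05. The smallest P of them belonged to *Foxo4*, another forkhead factor that insulin controls, at 34.5 ± 2.69 and 27.8 ± 3.98 CPM (log2 fold change -0.31, adjusted P = 0.161).

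Substrates enter the pathway by way of lactate dehydrogenase, aminotransferases, amino acid and glycerol uptake and the mitochondrial pyruvate carrier. Of 19 such genes 14 were below 0 (median -0.16), and 0 were called by edgeR. DESeq2 called 2 (10.5%, beside 3.5% of all tested genes). At an unadjusted P under 0.05 there were 6, all 6 lower (31.6%, beside 15.6% of all tested genes). The list shares *Sds* and *Gls2* with the periportal markers and *Tat* with the hepatocyte markers, so these readings are partly the same genes. *Sdsl*, a serine dehydratase-like protein, was at 14.4 ± 1.58 and 11.4 ± 0.970 CPM with no overlap between the groups (log2 fold change -0.34, adjusted P = 0.115 by edgeR and 0.0452 by DESeq2). The other gene called by DESeq2 was *Ldha*, lactate dehydrogenase A (log2 fold change -0.26, adjusted P = 0.0255 by DESeq2 and 0.163 by edgeR), named after its value was seen. Of the 9 genes of the reversible steps shared with glycolysis 6 were above 0 (median 0.16), and 0 were called by edgeR. DESeq2 called 2 (22.2%), and 4 (44.4%, 3 higher and 1 lower) had an unadjusted P under 0.05. *Gpi1*, glucose 6-phosphate isomerase, was at 195 ± 23.5 and 241 ± 9.42 CPM without overlap (log2 fold change 0.31, adjusted P = 0.108 by edgeR and 0.0139 by DESeq2), and *Mdh2*, the mitochondrial malate dehydrogenase, named after its value was seen, was the other gene called by DESeq2 (log2 fold change 0.21, adjusted P = 0.0471, and 0.175 by edgeR).

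Among 15 fed-state genes, which insulin and sugar raise, 10 were above and 5 below 0 (median 0.078), and 1 was called by edgeR. DESeq2 called 4, all 4 lower (26.7%, beside 3.5% of all tested genes). At an unadjusted P under 0.05 there were 6, 2 higher and 4 lower (40%, beside 15.6% of all tested genes). The groups did not overlap for 3 of the 15, a pattern held by 3.98% of all tested genes. The list summed to 16020 to 18476 CPM in control livers and 11847 to 15192 CPM with MI-883. Such a sum is weighted toward the most abundant genes and does not describe the list gene by gene, since 10 of the 15 were above 0. *Srebf1*, which encodes the SREBP-1 factor of fatty acid synthesis, fell from 486 ± 84.3 CPM (range 385 to 611) to 324 ± 44.2 CPM (range 276 to 384), with a log2 fold change of -0.58, a standard error of 0.125 and an adjusted P of 0.0470 (edgeR). The highest MI-883 liver was at 383.9 and the lowest control liver at 384.5 CPM. The call held in 3 of 10 fits that left out a liver. The adjusted P was 0.0998, 0.105 and 0.115 without control livers 3, 4 and 5, and 0.0867, 0.0998, 0.0581 and 0.130 without MI-883 livers 1, 2, 4 and 5. With total counts as the scale it was 0.0661, and without MI-883 livers 2 and 3 together 0.150. It stayed under 0.05 with the replicate number as a block (0.0232) and with a surrogate variable (0.0449), both by edgeR. The same held with the size factors of DESeq2 or other filters (0.0372 to 0.0476, edgeR). By DESeq2 itself the adjusted P of *Srebf1* was 0.000691. Among other genes of the list, DESeq2 also called *Scd1*, a desaturase of fatty acids named after its value was seen (log2 fold change -0.48, adjusted P = 0.00286, and 0.105 by edgeR).

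Genes induced by fasting outside gluconeogenesis did not pass the test. Of 15 such genes 6 were above and 9 below 0 (median -0.030), with 0 called by edgeR, 0 by DESeq2 and 1 at an unadjusted P under 0.05. *Fgf21*, the fasting hormone of the liver, was at 6.90 ± 2.34 and 5.55 ± 1.40 CPM (log2 fold change -0.32, adjusted P = 0.521). *Cyp4a14*, a fatty acid hydroxylase and PPARalpha target, was at 511 ± 254 and 222 ± 149 CPM (log2 fold change -1.20, standard error 0.433, adjusted P = 0.208). In glycogen metabolism 11 of 16 genes were above 0 (median 0.087), with 0 called by edgeR, 0 by DESeq2 and 2 at an unadjusted P under 0.05.

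The time of day and stress hormones also set the level of these genes, and lists of both were read. Of 14 clock genes 10 were below 0 (median -0.12), with 0 called by edgeR, 0 by DESeq2 and 2 at an unadjusted P under 0.05. *Dbp*, an output gene of the clock, was at 131 ± 14.96 and 105 ± 12.6 CPM (log2 fold change -0.31, adjusted P = 0.167). Of 9 glucocorticoid-responsive genes 6 were below 0 (median -0.17), with 0 called by edgeR and 0 by DESeq2. At an unadjusted P under 0.05 there were 3 (33.3%), all 3 lower. *Mt1*, a metallothionein, was at 93.3 ± 51.5 and 45.3 ± 24.5 CPM (log2 fold change -1.04, adjusted P = 0.232). Their part in the levels of the members was not tested.

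**Figure D5:**
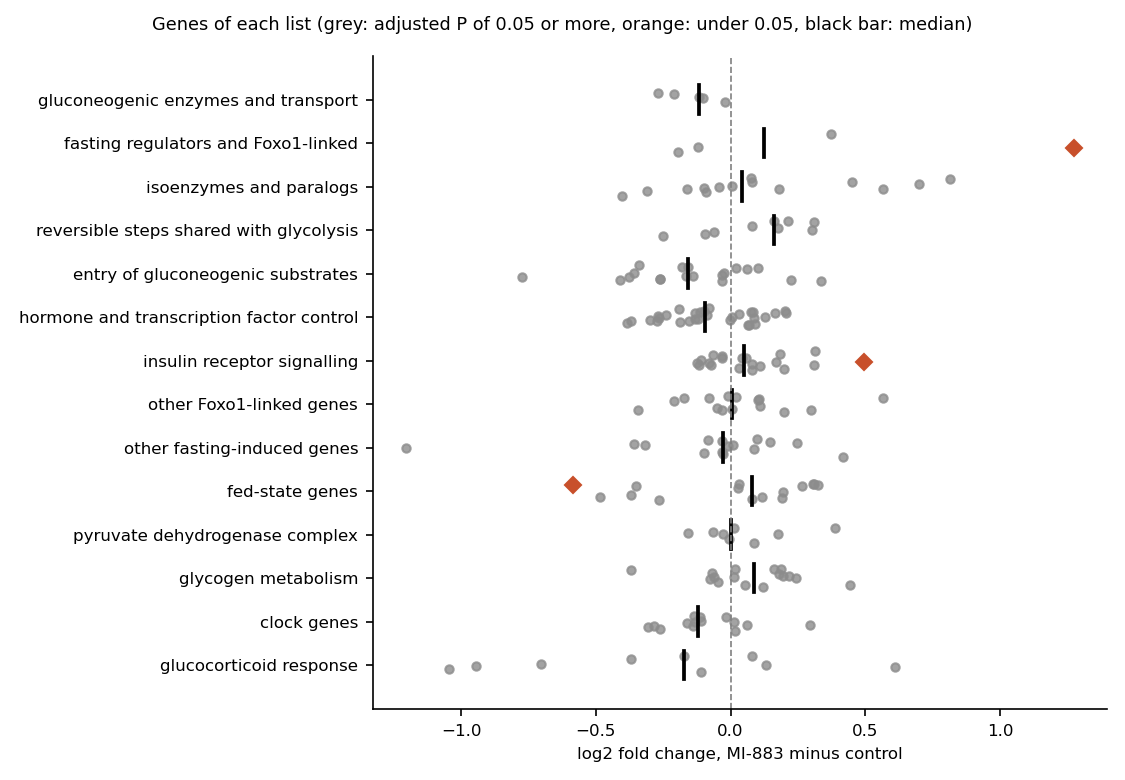
Fitted log2 fold change (MI-883 minus control) of each tested gene of the 14 lists (rows), with grey circles for an adjusted P of 0.05 or more, orange diamonds for one under 0.05 (edgeR) and a black bar for the median of the list. The orange diamonds are *Pdk4* (1.27), *Pik3cb* (0.49) and *Srebf1* (-0.58).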

How the data were processed

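Liver RNA of 5 control and 5 MI-883 mice was sequenced from directional libraries, and the grouping and replicate numbers were taken from the sample titles. The authors aligned the reads to mm10 with STAR and counted them with featureCounts, and fastp 0.23.0 is listed in the submitters' processing notes. The deposited values are raw counts per Entrez gene, without normalization. The annotation and strand setting are not given in the sources used here. No column of unmapped samples was present (0). Symbols came from RefSeq for 16644 of 16647 genes, and exon lengths from GENCODE M21 (GRCm38). An exon length is the union of all annotated exons of a gene and can exceed that of a single transcript. It was 7806 bases for *Pck2*, 3429 for *Pck1*, 7779 for *Pdk1* and 3511 for *Pdk4*. Levels per kb and shares per length depend on this choice.

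The tested genes were the 13219 whose counts over the livers came to 60 or more, and 3428 were below that. A filter of 60 counts in every sample, the other reading of the study's methods, leaves 9959. The comparison of groups used edgeR 4.0.16 under R 4.3.3 (quasi-likelihood test on TMM-normalized counts, condition as the only term) and Benjamini-Hochberg adjustment over all tested genes at 0.05. CPM are TMM-scaled, and log2 CPM for permutations and correlations used a prior count of 2. Exact permutation tests ran over 252 splits of the livers, or 14400 within-group arrangements for pairs. A floor of 3 counts corresponds to 0.0828 to 0.128 CPM and covers counting error only. The fits were tested on simulated data. Alternatives were DESeq2 1.42.0, its size factors, total counts, other filters, a replicate block, a surrogate variable (sva 3.50.0) and leaving out each liver; leaving out MI-883 replicates 2 and 3 together was chosen after seeing the data, because of their kidney marker counts.

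The members and lists were chosen with earlier results of these data known. Genes named outside the members are the called genes of each list or, where none was called, the one with the smallest P, plus *Igfbp1*, *Pck2*, *G6pc3*, *Fgf21* and *Gcgr*. A few genes so chosen are not reported here. Muscle markers were added after seeing the data.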

Additional observations from a re-analysis of the deposited data

Results flagged for a closer look

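Within the groups of 5 livers, a liver lay apart from the others for 3 gene and group combinations among 54 checked, where Dixon's criterion (gap over range above 0.71) flags about 1 in 20 by chance, or 2.7 of 54. *Pcx* was at 595.7 CPM in control replicate 4, with the nearest control liver at 760.9 CPM. *Foxo1* was at 82.2 CPM in control replicate 5, with the nearest control liver at 59.9 CPM. *Foxo4* was at 29.8 CPM in control replicate 4, with the nearest control liver at 34.7 CPM.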

How the results depend on the processing

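Over 27 named genes and all alternatives, 471 of 512 fold changes kept their sign and their side of the threshold, 15 lost a call, 6 gained one and 20 changed sign. Sign changes were in 3 genes with changes near 0. *G6pc* was at 0.095 with the replicate block, 0.20 with a surrogate variable, and -0.33 to 0.17 when a liver was left out (0.17 without control replicate 4 and 0.040 without control replicate 5). *Slc37a4* was at 0.016 with total counts, 0.0089 with a surrogate variable, and -0.088 to 0.037 when a liver was left out. *Igfbp1* was at 0.043 with total counts, 0.010 with 60 counts in every sample, 0.21 with the block, 0.16 with a surrogate variable, and -0.26 to 0.35 when a liver was left out.

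The called genes numbered 136, and 463 with DESeq2, 89 with the block, 254 with a surrogate variable, 54 without MI-883 replicates 2 and 3, and 62 to 203 when a liver was left out. Called members numbered 1, and 0 with the block, 0 without MI-883 replicates 2 and 3, and 0 to 1 when a liver was left out (0 without control replicate 5 or MI-883 replicate 5). Called genes of the wider lists numbered 2, and 10 with DESeq2, 1 with total counts, 3 with a surrogate variable, 0 without MI-883 replicates 2 and 3, and 0 to 5 when a liver was left out. The number of member pairs that passed was 0 throughout. For *Pdk4* the adjusted P was 0.0124 to 0.0226 under other scalings and filters and 0.0130 with a surrogate variable. The cause of these shifts was not tested.

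With the replicate number as a block, *Pdk4* had a log2 fold change of 1.31 and an adjusted P of 0.0545. The sample titles do not say what the replicate numbers stand for. Same-numbered livers correlated at -0.11 to 0.40 in their deviations from group means. Of these 5 pairs 1 exceeded 0.1, and 1 of 10 livers correlated best with its own number. Correlations over so few pairs cannot settle whether the numbers pair the livers. *Pdk3* rests on 6 to 24 reads per liver. The interval of *G6pc* (-0.80 to 0.60) was wider than that of *Pcx* (-0.30 to 0.071) with the same number of livers, and its coefficient of variation in control livers was 54.2% beside 10.8% for *Pcx*.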
